A study of Mus musculus with 28 samples.

Results

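The 10 SynSURF sorted mRNA libraries of mouse brain synaptosomes are described here, chosen from the sample titles, out of 28 libraries in the series. Their genes are described by whether a gene was counted in all 10 libraries, in some of them, in 1 or in none. Synaptosomes are pinched-off nerve terminals that often keep a piece of the facing postsynaptic membrane. In the sorted group, about 30000000 sorted particles were suspended in 10 µL of the reducing agent TCEP. In the crude group of the same preparation, with 10 libraries, a pellet with about 15000000 particles went into 10 µL of PBS instead, and its values are given only for description. Per the labels, both groups are polyA RNA from brain with the cell type given as primary neurons. The Repli-g WTA kit for single cells amplified the RNA of both into cDNA, and libraries made on the 10x Genomics platform were read in pairs on a HiSeq 2000. No strain, age, sex or genotype, and no sorting marker, is given in the sources used here. Nothing says that replicates came from separate animals, so the p-values below cover only how these samples vary, and that variation may be technical.

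Most neuronal mRNA sits in the cell body, and a selected set is carried into axons and dendrites, where local ribosomes can translate it. Glia also move mRNA to their outer processes, and the message of myelin basic protein is a well-known case, carried to the myelin sheath and translated there. Rn45s is the locus of the 45S precursor of ribosomal RNA, a transcript made in the nucleolus that contains the sequences of 18S, 5.8S and 28S ribosomal RNA. When little RNA is amplified, a rare message can be lost by chance or copied many times, and either event leaves uneven counts between libraries.

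The sorted libraries held between 76520 counts (replicate 8) and 1812759 counts (replicate 1), a 23.7-fold range with a median of 124868. They counted 2588 (replicate 8) to 6630 (replicate 1) genes, with a median of 3743, where a gene was taken as counted from 1 count upward. In the crude libraries the totals were 1035423 to 8897238 counts, with 12236 to 14701 genes counted. The number of genes counted rose with the total across the 10 sorted libraries (Pearson's r = 0.80, adjusted p = 0.0272; Spearman's rho = 0.903, adjusted p = 0.00355; 2-sided permutation tests with 100000 resamples, Benjamini-Hochberg adjusted over 5 relations). Without replicates 1 and 4, whose totals lay farthest from the median, r was 0.95 (exact permutation test, adjusted p = 0.00186, n = 8). Without replicate 1 alone, r was 0.60 and the adjusted p was 0.229 (exact permutation test, n = 9). The adjusted p was also above 0.05 without replicate 8 (0.0591), replicate 9 (0.0518) or replicate 10 (0.0653), each by an exact permutation test. At an equal total of 76520 counts, the expected number of genes was 3217 ± 500.1 (SD, n = 10), highest in replicate 2 with 4152 and lowest in replicate 8 with 2588. Replicate 4, second in depth, came to 2666 genes at that total.

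Of the 25239 genes in the table, 607 were counted in all 10 sorted libraries (2.41%), 7033 in 2 to 9 (27.9%), 2688 in 1 (10.7%) and 14911 in none (59.1%). The number of genes fell steadily with the number of libraries up to 9, which counted 466 genes, and the group counted in all 10 was larger again. Much of this spread is present at equal depth. At 76520 counts per library, 415 genes were expected in all 10 libraries and 2777 in 1 only. With Rn45s removed and 32095 counts per library, 277 were expected in all 10.

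**Figure D1:**
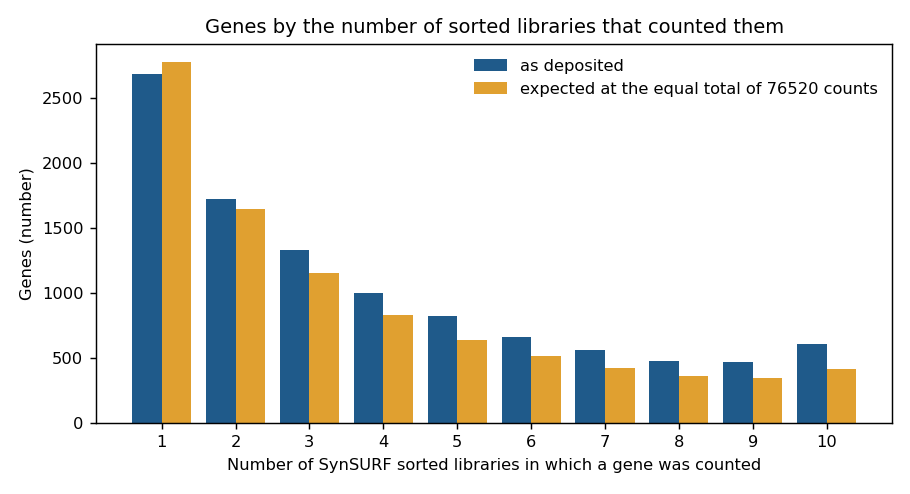
Number of genes (vertical axis) counted in 1 to 10 of the sorted libraries (horizontal axis), as deposited and as the expected number when each library is thinned to 76520 counts. Genes counted in 1 library (2688 as deposited) outnumber those in all 10 (607) at both depths; the 14911 genes counted in none are not drawn.

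The 607 genes in all 10 libraries held 59.9% of the counts on average, with a range of 49.0% to 82.4%. Among counts other than Rn45s they held 50.2% on average, within the narrow range of 44.8% to 54.2%. The 2688 genes in 1 library held 1.35%. For most of the 607, presence rested on few counts. Their lowest count over the 10 libraries had a median of 2, and 218 of them fell to 1 count in some library. Only 110 had at least 10 counts in every library, and 13 had at least 100.

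How often a gene was counted followed its level in the crude libraries, given here with no test. Mean crude level had a median of 319 CPM (counts per 1000000) for genes in all 10 sorted libraries, 38.04 CPM for those in 2 to 9, 6.02 CPM for those in 1 and 0 for those in none. CPM here are relative to the library total. Of the 125 genes at 1000 CPM or more in the crude libraries, 79.2% were in all 10 sorted libraries. That share was 22.4% of 1991 genes between 100 and 1000 CPM and 1.05% of 5972 genes between 10 and 100 CPM. All 607 were also counted in all 10 crude libraries, as were 10598 genes of the table (42.0%). Of the 14911 genes in no sorted library, 1591 were counted in all 10 crude libraries and 8373 in no crude library. A further 124 genes were counted in a sorted library and in no crude one.

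The longest annotated transcript had a median of 3380 bases for genes in all 10 sorted libraries, 3717 for those in 2 to 9, 3237 for those in 1 and 2022 for those in none. Within broad classes of crude level the order was different, although level still varies inside each class. Among genes at 100 to 1000 CPM in the crude libraries, the median was 3370 bases for the 442 genes in all 10 sorted libraries that have an annotated length, against 4484.5 bases for the 44 in 1 or none. Between 10 and 100 CPM the medians were 2952 bases for 63 genes in all 10 and 3852 bases for 1481 genes in 1 or none. Crude level and length moved together with detection, and their separate parts were not tested.

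Rn45s was counted in every sorted library, and its share of the counts spanned a 77.6-fold range. Replicate 9 was highest with 62.5% (95% Wilson interval 62.1% to 62.8%), ahead of replicate 7 with 38.9% and replicate 1 with 37.9%. The share was 20.98% in replicate 8, 19.4% in replicate 6, 10.2% in replicate 4 and 4.68% in replicate 10. It stayed under 1% in replicate 2 with 0.805% (0.767% to 0.844%), replicate 5 with 0.885% and replicate 3 with 0.919%. The mean was 19.7% ± 20.8 (SD, n = 10) and the median 14.8%, so the SD was as large as the mean. Without replicate 9 the mean was 15.0% ± 15.3 (SD, n = 9). In the crude libraries the share was 0.386% ± 0.220 (SD, n = 10), from 0.0894% to 0.778%. All 10 sorted libraries were therefore above the highest crude library, replicate 2 by the narrowest margin. These intervals, and the limits given below for counts of 0, cover counting error only. Amplified reads are not independent molecules, and the sources used here do not say whether molecular identifiers were used in counting.

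**Figure D2:**
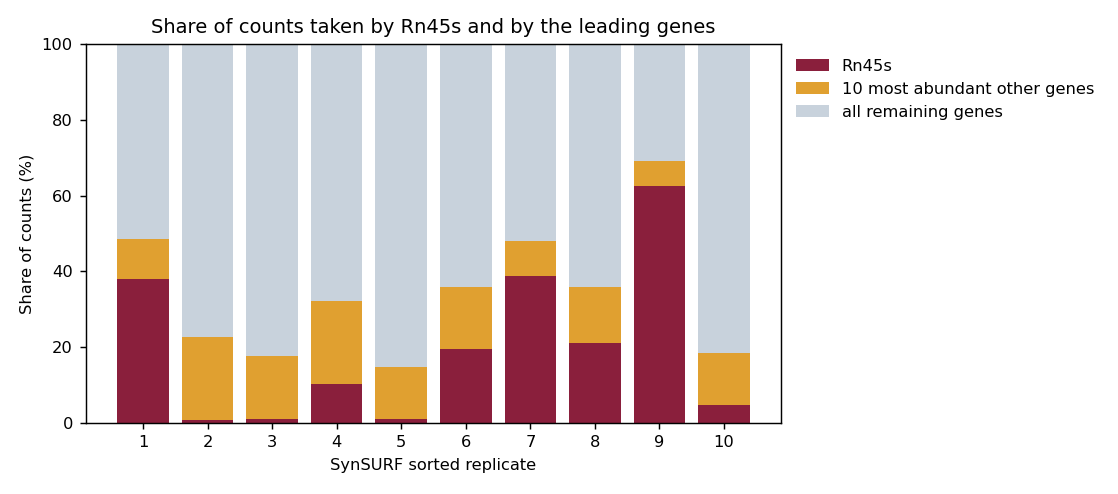
Share of all counts (vertical axis, %) in each sorted replicate (horizontal axis) taken by Rn45s, by the 10 most abundant other genes and by all remaining genes. Rn45s takes 62.5% in replicate 9 and under 1% in replicates 2, 3 and 5.

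On the deposited TPM scale, which divides by transcript length, the Rn45s share was lower. It made up 33.5% of TPM in replicate 9 and 16.4% in replicate 1, down to 0.194% in replicate 2. The Rn45s share did not pass the test against any of 4 other measures. These were the number of genes at equal depth without Rn45s (r = 0.146, rho = -0.00606), the total without Rn45s (r = 0.143, rho = -0.442), the share of the 10 most abundant other genes among other counts (r = -0.103, rho = 0.0303) and the ribosomal protein mRNA share of other counts (r = 0.129, rho = 0.127). Each Pearson coefficient had an adjusted p of 0.780, and the lowest adjusted p of a Spearman coefficient was 0.509 (2-sided permutation tests, n = 10). Without replicates 7 and 9, whose Rn45s shares lay farthest from the median, these r were -0.0925, 0.712, 0.0807 and -0.281, and none passed the exact permutation test (lowest adjusted p = 0.263, n = 8). The missed threshold does not show that the measures are unrelated.

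Rn45s was the most counted gene in 7 libraries. Mbp, which encodes myelin basic protein, led in replicates 3 and 5, and Fth1, the ferritin heavy chain that stores iron, led in replicate 2. The 10 most counted genes of each library together took 33.5% ± 17.4 of the counts (SD, n = 10), from 13.9% in replicate 5 to 69.0% in replicate 9, and 7.22% ± 0.916 in the crude libraries. Without Rn45s, the 10 leading genes took 18.1% ± 3.45 of the other counts, highest in replicate 4 with 24.5%. In replicate 9 a single gene, Rn45s, held more than 50% of the counts, while 135 genes were needed for 50% in replicate 5. Among other counts the number of genes needed for 50% ran from 54 in replicate 4 to 146 in replicate 10.

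A core of genes was high in nearly every library. Among the 5 most counted genes of each library, Mbp appeared in 8 libraries, Fth1 and Rn45s in 7, Ckb, the brain creatine kinase, and Cox4i1, a cytochrome c oxidase subunit, in 3, and Rps3, a ribosomal protein gene, in 2. The 20 genes with the highest median CPM were all counted in all 10 libraries and together held 32.1% of the counts on average, from 14.9% to 70.2%. After Rn45s, Mbp and Fth1 they include the oligodendrocyte gene Mobp, the calcium signalling genes Calm2 and Camk2n1, the SNARE gene Snap25, the mitochondrial carrier adaptor Trak2 and the astrocyte glutamate transporter Slc1a2.

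The replicates still disagreed widely on the core. Mbp had 39541, 8734, 6502, 1820, 5907, 1371, 1378, 1350, 2119 and 5603 counts in replicates 1 to 10, which is a lowest value of 5598 CPM in replicate 4, a median of 23300 CPM and a highest value of 58265 CPM in replicate 3. Fth1 had 6847 CPM in replicate 4, a median of 12692 CPM and 58213 CPM in replicate 2. Snap25, which drives vesicle fusion at the terminal, had 354 CPM in replicate 4, a median of 3367 CPM and 5009 CPM in replicate 3. Ckb was more uneven than Mbp, Fth1 and Snap25, with 154 CPM in replicate 4, a median of 7172 CPM and 27916 CPM in replicate 6. The widest range among the 20 genes was that of Zcchc24. It had 23.4 CPM from 2 counts in replicate 9, a median of 3002 CPM and 13790 CPM in replicate 5. Replicate 4 was the lowest library for 12 of the 20 genes, and for 11 of them when Rn45s was left out of the total. Slc1a2 was lowest in replicate 6 instead, with 61.8 CPM, against a median of 2532 CPM.

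Most other leading genes entered the top 5 of a single library, which does not mean that they were low elsewhere. Of 25 genes that entered the top 5 anywhere, 18 did so in 1 library. Some of these were counted in all 10 libraries and were spread widely. Of the CPM summed over the 10 libraries, the leading library held 15.1% for Mobp, 21.5% for Rpl27 and 25.8% for Itm2c. Others were concentrated in 1 library. Tpi1, the glycolytic triosephosphate isomerase, took 4.49% of the counts in replicate 2 with 9222 counts, and no other replicate had more than 151. Ybx1, a cold-shock RNA-binding protein gene, took 4.76% in replicate 4 with 15487 counts, against 3724 in the far deeper replicate 1 and 338 or fewer elsewhere. Tagap1 took 1.73% in replicate 1 with 31384 counts, was at 147 counts or fewer in 5 other libraries and at 0 in 4. Add3, which encodes an adducin that caps actin filaments, had 3312 counts in replicate 10 and was otherwise at 19 or fewer, with 0 in 5 libraries.

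Several more genes showed the same form. Wdr82, a subunit of a histone methyltransferase complex, had 1543 counts in replicate 8 (2.02% of its counts) and at most 163 elsewhere. Borcs5, which acts in lysosome transport, had 1678 counts in replicate 6 and was at 0 in 5 libraries. Tmem33, an endoplasmic reticulum membrane protein gene, had 1484 counts in replicate 3, 448 in replicate 2 and 19 or fewer elsewhere. Summing CPM over the 10 libraries, the leading library held 98.3% for Add3, 97.3% for Tpi1, 94.6% for Wdr82, 91.8% for Ybx1 and 90.5% for Tagap1. Equal levels in 10 libraries would give 10.0%. None of these genes was rare in the crude libraries, where Tagap1 averaged 1472 CPM, Tpi1 497 CPM, Ybx1 307 CPM, Wdr82 245 CPM and Add3 215 CPM.

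**Figure D3:**
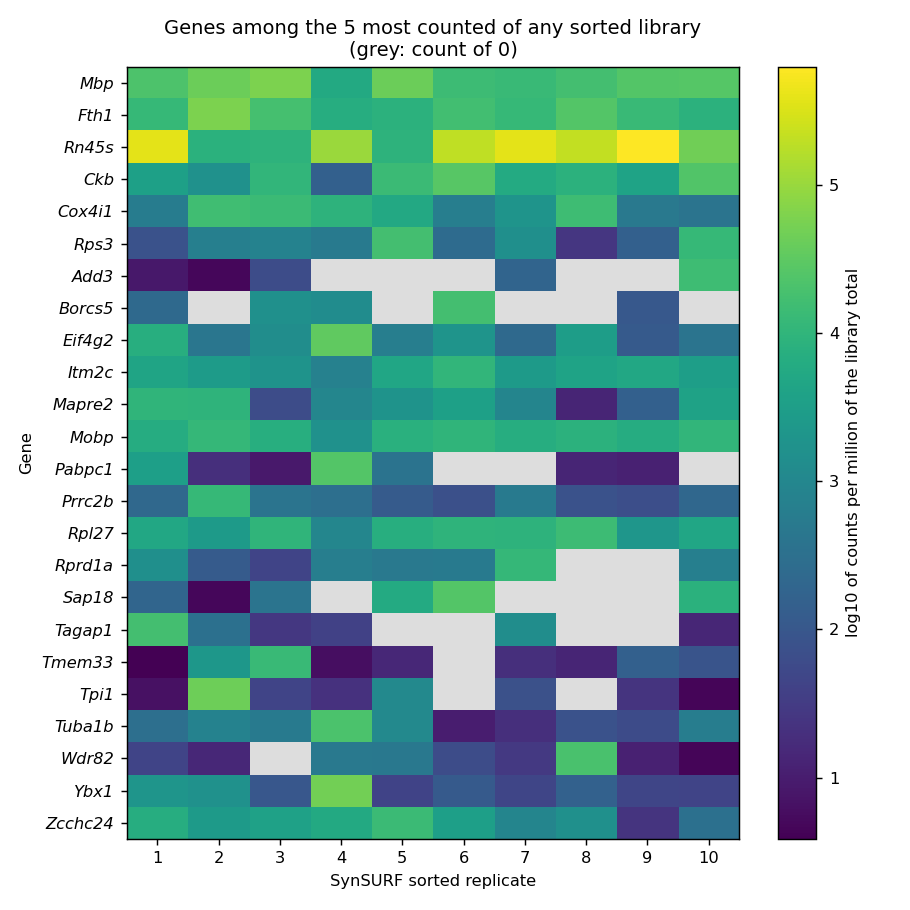
Level of genes among the 5 most counted of any sorted library (rows) in each sorted replicate (columns), as log10 of CPM by colour, with counts of 0 in grey. Mbp, Fth1 and Rn45s are bright in most columns, whereas Add3, Tpi1, Wdr82 and Ybx1 are bright in 1 column each.

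Length changed the order of the leading genes. On the deposited TPM scale, Rn45s led in 5 libraries (replicates 1, 6, 7, 8 and 9), Fth1 in replicate 2 with 12.4% of TPM, Cox4i1 in replicate 3, Mbp in replicate 5 and Ckb in replicate 10. In replicate 4 the leading gene was Rps27rt, a copy of the ribosomal protein gene Rps27, with 20.6% of TPM from 2110 counts. Rpl36, another ribosomal protein gene, held 10.4% of TPM in replicate 2. How the authors' counting split reads between such near-identical copies is not given, so both values are uncertain.

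Concentration in 1 library was general. Of 6641 genes with at least 10 counts over the 10 libraries, 4243 (63.9%) had more than 50% of their summed CPM in a single library, and 1189 had more than 90%. The median share of the leading library was 59.7%, and 32.8% for the 607 genes in all 10 libraries, of which 105 exceeded 50%. Replicate 2 led for 609 of the 4243 genes, replicate 4 for 603 and replicate 10 for 556, while replicate 9 led for 170. A few genes were even, named here after their values were seen. Among the 109 named genes with at least 10 counts in every library, the highest library exceeded the lowest by a median factor of 16.9 (CPM without Rn45s). The factor was 3.66 for Rps3a1, a ribosomal protein gene, 3.76 for Oaz1, the polyamine regulator antizyme, 3.79 for Tmsb4x, an actin-binding thymosin, and 5.10 for Actb, cytoplasmic actin. It reached 355 for Prkacb, a protein kinase A subunit, and 202 for Ckb.

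Genes counted in 1 library only were mostly at the edge of detection. Of these 2688 genes, 1089 (40.5%) had 1 count, and the median was 2 counts. The number per library ran from 109 in replicate 8 to 677 in replicate 1, and replicate 4, second in depth, had 171. A minority was abundant, with 484 genes at 10 counts or more and 62 at 100 or more. Wdr24, a regulator of mTORC1 signalling, had 625 counts in replicate 5, which is 4524 CPM, and none elsewhere. Klf3, a transcription factor gene, had 493 counts in replicate 10, and Slc25a29, a mitochondrial amino acid carrier gene, had 470 in replicate 4. Slc25a38, a mitochondrial glycine carrier gene, had 291 counts in replicate 3, and Olfml1 had 266 in replicate 8. Most were present in the crude preparation, where 1707 of the 2688 were counted in all 10 libraries. Crude levels averaged 39.4 CPM for Wdr24 and 24.01 CPM for Klf3, and 178 CPM for Amd1, the polyamine synthesis gene seen only in replicate 8 with 149 counts.

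The reverse case is a gene at 0 in a library where others had it. A 0 was set against the count expected from the median share in the other 9 libraries. An expected count of 3 was taken as the upper limit that a 0 allows under counting error alone. Of 15782 pairs of gene and library with at least 3 counts expected, 2236 (14.2%) were at 0. Replicate 4 stood apart with 681 of 2397 (28.4%). Replicates 9 and 8 followed with 20.1% and 19.7%, while replicate 1 had 6.45% and replicate 2 had 7.95%. With at least 10 counts expected, 570 of 8537 (6.68%) were at 0, and replicate 4 again had the highest share with 15.6%. The widest gaps were far above this limit of 3 counts. In replicate 4, Rnf187, a ubiquitin ligase gene, was at 0 with 280 counts expected, and Pdxp, which removes phosphate from pyridoxal phosphate, with 248. Arpc4, a subunit of the actin-nucleating Arp2/3 complex, was at 0 there with 247 expected. Replicate 1, with the greatest depth, had 0 for the mitochondrial ribosome gene Mrpl40 with 251 expected and for the ribosomal protein gene Rps16 with 177.

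The 466 genes counted in exactly 9 libraries show which library missed them. Replicate 9 missed 104, replicate 8 missed 94, replicate 4 missed 75 and replicate 6 missed 62, against 13 in replicate 2, 6 in replicate 10 and 2 in replicate 1. The most abundant were Bnip3l, a mitophagy receptor gene, and the respiratory chain gene Ndufb11, both at 0 in replicate 9. The G-protein subunit gene Gnai1 was at 0 in replicate 8 only, Gnaq in replicate 9 only and Gnb1 in replicate 6 only. Gnai1 shows how scattered such a gene was. It had 131, 361, 1, 194, 147, 93, 155, 0, 106 and 62 counts in replicates 1 to 10, so replicate 3 was nearly at 0 as well. Septin8 and Fabp5, a septin and a fatty-acid-binding protein gene, were at 0 only in replicate 4, where a 0 allows up to 9.23 CPM, against medians of 595 CPM and 591 CPM over the 10 libraries.

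A small set of genes was absent from all 10 sorted libraries although abundant in the crude ones. Ptprr, a neuronal tyrosine phosphatase gene, had 0 counts in the sorted libraries, against 322 CPM on average in the crude libraries (191 to 704 CPM). Gpr158, an orphan receptor gene, was also at 0, against 291 CPM in the crude libraries. Cnr1, the cannabinoid receptor of nerve terminals, was at 0 against 133 CPM (78.5 to 238 CPM). Klhl42, Unc79 and Sptlc1 completed the 6 highest, with 121 to 139 CPM in the crude libraries. Over the pooled sorted counts a 0 allows up to 0.946 CPM. In a single sorted library it allows 1.65 CPM in replicate 1 but 39.2 CPM in replicate 8.

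Gene lists for functions and cell types are described by how often their members were counted, with no test. In bulk particles, fewer particles of a type and less RNA per particle cannot be told apart. Of 38 cytoskeleton genes, 21 were in all 10 libraries, and of 81 cytosolic ribosomal protein genes 38 were, set against 2.41% of all genes. Of 36 translation factors 15 were in all 10, of 32 splicing and nuclear RNA-binding genes 11, and of 16 glycolysis genes 8. Of 20 mRNAs known to be carried into dendrites or axons, 10 were in all 10, among them Camk2a, Map2, Actb, Eef1a1 and Nrgn. In the crude libraries, 80 of the 81 ribosomal protein genes were counted in all 10. Of 76 nuclear-encoded oxidative phosphorylation genes, 10 were in all 10 sorted libraries and 70 in all 10 crude libraries. Of all 10598 genes in all 10 crude libraries, 5.73% were in all 10 sorted libraries. The median crude level was 61.1 CPM for the oxidative phosphorylation list and 122 CPM for the ribosomal protein list. It was 312 CPM for the dendritic and axonal list, 254 CPM for glycolysis and 246 CPM for cytoskeleton. For translation factors it was 150 CPM and for splicing genes 89.1 CPM. Of all genes between 100 and 1000 CPM in the crude libraries, 22.4% were in all 10 sorted libraries, and 1.05% of those between 10 and 100 CPM. Whether a list exceeds genes of like level was not tested.

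Most synaptic genes were counted in 2 to 9 libraries. Of 32 presynaptic genes, 7 were in all 10 libraries (among them Snap25, Syt1, Syn2, Rims1, Cplx1 and Napb), 22 in 2 to 9, 2 in 1 and 1 in none, the vesicle protein gene Syp. Of 37 postsynaptic genes, 3 were in all 10 (Dlgap1, Camk2a and Camk2b), 26 in 2 to 9, 3 in 1 and 5 in none. Of all genes, 2.41% were in all 10, 27.9% in 2 to 9, 10.7% in 1 and 59.1% in none, and the median crude level was 152 CPM for the presynaptic and 103 CPM for the postsynaptic list. The 5 in none were the scaffold genes Shank1, Homer3 and Dlgap2 and the glutamate receptor genes Gria4 and Grin1. Camk2a, the kinase subunit whose mRNA is carried into dendrites, had 439, 18, 27, 1, 4, 209, 7, 4, 4 and 3 counts in replicates 1 to 10. Its level was 2153 CPM in replicate 6 and at most 242 CPM elsewhere, so that 73.3% of its summed CPM came from replicate 6. Syt1, the calcium sensor of release, was likewise highest in replicate 6 with 1349 CPM, against a median of 94.5 CPM over the 10 libraries. Presynaptic genes held 0.247% of other counts in replicate 4 and 0.877% to 1.54% in the other 9 libraries.

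**Figure D4:**
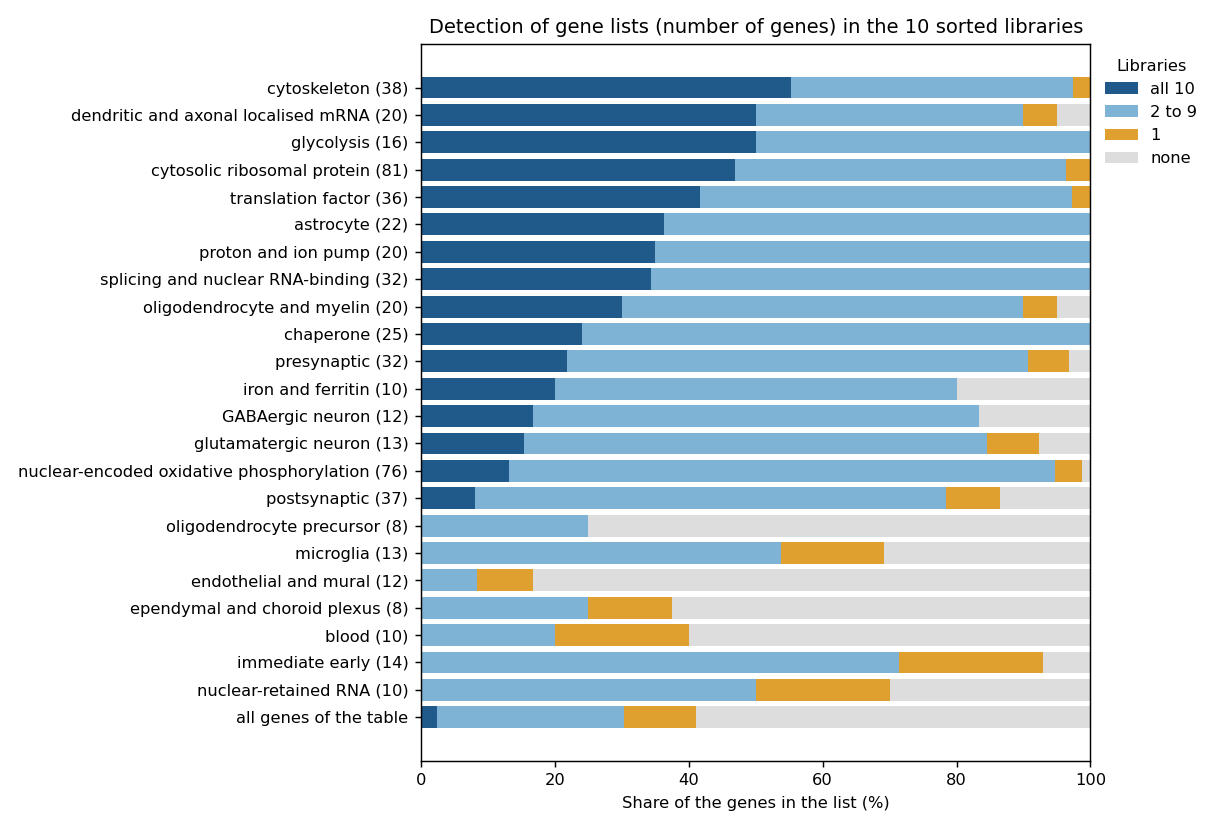
Share of the members of each gene list (rows, with the number of genes) that was counted in all 10 sorted libraries, in 2 to 9, in 1 or in none (horizontal axis, %), above the same for all genes of the table. Cytoskeleton has the largest share in all 10 (21 of 38 genes), and 10 of 12 endothelial and mural genes were in none.

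Markers of other cell types are given beside the same shares of all genes, of which 2.41% were in all 10 and 59.1% in none. Of 20 oligodendrocyte and myelin genes, 6 were in all 10 libraries (among them Mbp, Mobp, Cnp, Cryab and Bcas1) and 1, Gjb1, in none. The list held 3.92% ± 1.91 of the counts (SD, n = 10), and Mbp was the main part. Mog, a defining marker of myelinating cells, was in 7 libraries with at most 16 counts. All 22 astrocyte genes were counted somewhere and 8 in all 10, yet the defining markers Gfap, Aqp4 and Aldh1l1 were in 5, 4 and 2 libraries with at most 8 counts each. Of 13 microglia genes none was in all 10, 7 were in 2 to 9, 2 in 1 and 4 in none, with Cx3cr1 at 0, P2ry12 at 1 count in replicate 1 and Tmem119 at 58 and 5 counts in 2 libraries. Of 12 endothelial and mural genes 10 were in none, Cldn5 and Pecam1 among them. Of 8 oligodendrocyte precursor genes 6 were in none, and Pdgfra had 256 counts in replicate 10 and at most 4 elsewhere. Median crude levels were 9.79 CPM for the microglia, 5.96 CPM for the precursor and 3.83 CPM for the endothelial and mural list. Of all genes at 1 to 10 CPM in the crude libraries, 50.04% were in no sorted library.

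The labels give primary neurons as the cell type, and neuron class markers were sparse. The defining glutamatergic marker Slc17a7, a vesicular glutamate transporter, was counted in 5 libraries with 41, 5, 4, 1 and 4 counts, and Slc17a6 in 5 with at most 65 counts. Of the GABAergic markers, Gad1 was in 7 libraries, with 195 counts in replicate 4 and at most 66 elsewhere, Gad2 in 3 with at most 7, and Slc32a1 in 4 with at most 22. The glutamatergic list held 0.0834% ± 0.0708 of the counts and the GABAergic list 0.0675% ± 0.0612 (SD, n = 10 each).

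Replicate 4 differed from the other 9 in what it held. Splicing and nuclear RNA-binding genes took 9.71% of its counts other than Rn45s, against 0.262% to 0.970% in the others. Translation factors took 10.5%, against 0.862% to 3.38%, with replicate 1 the nearest in both lists. Hnrnph1, Hnrnpd, Ddx5 and Hnrnpk, which bind or unwind RNA, carried much of the first list there with 6696, 4652, 4090 and 3493 counts (named after their values were seen). Hnrnph1 stood at 20596 CPM in replicate 4, against a median of 64.7 CPM and a highest value of 801 CPM in the other 9. Of 30 members of the list with at least 10 counts, 20 had over 50% of their summed CPM in 1 library, a share close to the 63.9% of all genes. For 15 of these 20 the library was replicate 4, which was the leading library for 603 of the 4243 genes overall. In the translation list, Eif4g2, an initiation factor gene, stood at 33388 CPM in replicate 4, and Pabpc1, which binds poly(A) tails, at 25566 CPM, against highest values of 7161 CPM and 3440 CPM in the other 9. Of the 23 lists with any count, 11 had their lowest share of other counts in replicate 4. Myelin genes were among them with 0.902%, against 3.52% to 9.07% in the other 9.

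**Figure D5:**
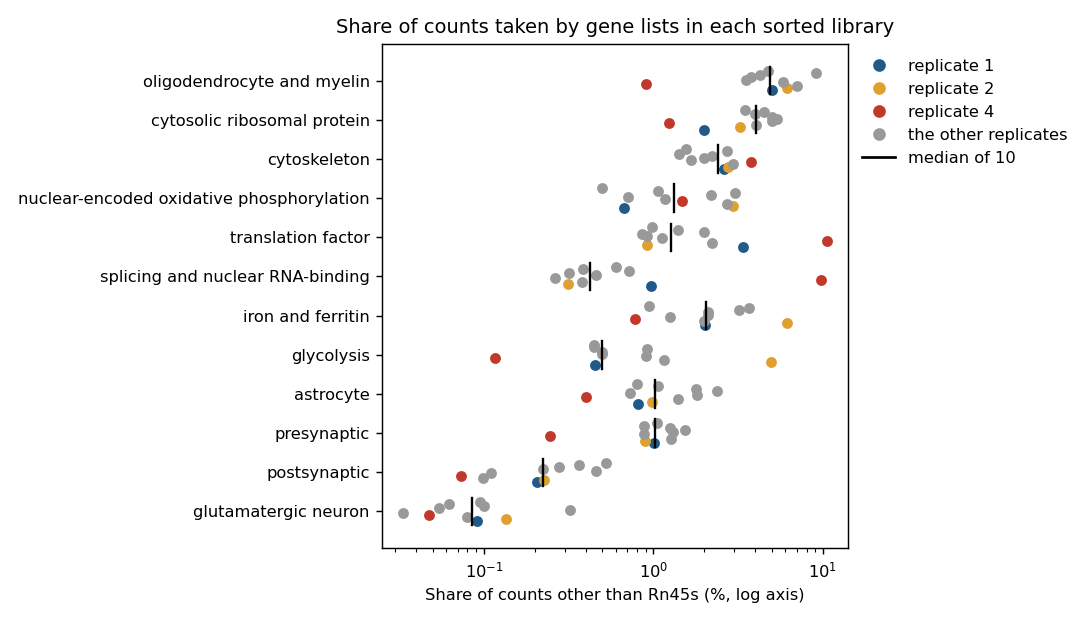
Share of counts other than Rn45s (horizontal log axis, %) taken by 12 gene lists (rows) in each of the 10 sorted libraries (points), with the median as a bar. Replicate 4 lies above the other 9 for splicing (9.71%) and translation factor genes (10.5%) and below them for myelin, presynaptic and glycolysis genes.

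Replicate 4 also shared fewer genes with its fellows. At equal totals, the genes counted in both libraries of a pair were 34.3% of those counted in either (median of 45 pairs, 27.2% to 39.3%), and the median was 29.5% for the 9 pairs with replicate 4. The exception was replicate 1, with 37.3%. Replicates 1 and 4 had 220 genes that no other library counted, against a median of 22 over the 45 pairs. At equal totals this was 107 genes, against a median of 29.5, and the next pair, replicates 2 and 10, had 79.0. Among 85 genes with at least 20 counts in replicate 4 and none in the 8 libraries besides replicate 1, 64 (75.3%) were counted in replicate 1. For the same measure in the other libraries the share was at most 47.1%, though replicate 1 is the deepest of all. Examples are Sp3, a transcription factor gene, with 764 counts in replicate 4 and 797 in replicate 1, Aph1a, a subunit of gamma-secretase, with 850 and 385, and Fxr1, an RNA-binding protein gene, with 585 and 522. Taf15, another RNA-binding protein gene, had 446 and 117, at 1.25 CPM on average in the crude libraries. What sets replicate 4 apart was not tested. Whether all of its counts, and those it shares with replicate 1, come from RNA of the sorted particles cannot be told from the count table.

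Single genes also made up much of a list in other libraries. Glycolysis genes took 4.95% of other counts in replicate 2, against 0.117% to 1.15% in the other 9. Tpi1 supplied 9222 counts there, and the next member, Pgk1, 191 counts. Iron and ferritin genes took 6.11% in replicate 2, against 0.776% to 3.65%, nearly all from Fth1. Of 62 oxidative phosphorylation genes with at least 10 counts, 29 had over 50% of their summed CPM in 1 library, beside 63.9% of all genes, and for 12 of the 29 it was replicate 2. Ndufab1, a complex I carrier protein gene named after its values were seen, had 731 counts in replicate 2 and at most 26.1 CPM in the other 9.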

How the data were processed

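The authors deposited estimated counts per gene symbol in 1 table of 25239 genes and TPM (transcripts per 1000000) for the same libraries, per the file headers. Per the submitters' processing notes, the tools were fastp and HISAT2 and the builds GRCm38 and GRCm39, without roles or versions. The counting tool, annotation and strand setting are unstated in the labels and headers, so overlapping genes and near-identical copies cannot be separated and no coordinates are given. Of the sorted values, 593 were not whole and all counts were rounded, which took 30 values above 0 to 0. No gene had an mt- symbol.

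Groups came from the sample titles. CPM are counts per 1000000 of the library total. Equal-depth values are exact expectations of sampling without replacement. Correlations used Pearson's r and Spearman's rho with 2-sided permutation tests (100000 resamples, or exact with under 10 libraries), adjusted by Benjamini-Hochberg over 5 relations. Dixon's criterion marked single libraries far from the others. No crude library entered a test. Scripts were tested on simulated data. Longest transcripts came from GENCODE M21, which matched 96.5% of symbols. TMM factors (edgeR 4.0.16) and DESeq2 1.42.0 size factors served as alternatives. Python 3.11.15, numpy 2.4.6, scipy 1.17.1, pandas 2.3.3 and R 4.3.3 were used.

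Genes named are the 20 highest by median CPM, the 5 highest of each library, the 2 highest seen in 1 library only, the 10 highest missing from 1 library, the 6 highest in crude libraries among those absent, up to 3 members of each of 24 lists and a fixed panel, leaving out predicted loci. A few genes that this rule selects are not reported here. Further genes are named for the widest gaps, for evenness or as list leaders, after their values were seen. Members and lists were chosen with earlier results of these data known. Total RNA and sucrose gradient libraries were not used here.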

Additional observations from a re-analysis of the deposited data

Results flagged for a closer look

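Across 10 measures per library, the shares of 24 gene lists and the CPM of the 20 leading genes, 16 sets of 10 values had 1 library set far from its nearest neighbour by Dixon's criterion for 10 values. For independent, normally distributed values the criterion flags about 1 in 20 sets. Several of these sets are strongly skewed, some overlap, and all come from the same libraries. That rate therefore does not apply here, and the number of flags shows no excess by itself.

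The total of replicate 1, 1812759 counts, lay far above the next library with 325117. Replicate 4 had 681 genes at 0 where at least 3 counts were expected, and the next library had 226. Its shares of all counts for translation factors, 9.44%, and for splicing and nuclear RNA-binding genes, 8.73%, compared with next values of 2.19% and 0.602%. Mobp, a myelin gene, was low there with 1646 CPM, against a next value of 6422 CPM.

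In replicate 2, glycolysis genes took 4.91% and iron and ferritin genes 6.06%, against next values of 1.14% and 2.54%, and Fth1 stood at 58213 CPM, against 25196 CPM. Proton and ion pump genes took 1.46% in replicate 3, against 0.654%. In replicate 5, immediate early genes took 0.114% and nuclear-retained RNAs 0.0608%, against 0.0439% and 0.0247%, and Zcchc24, an RNA-binding zinc finger gene, stood at 13790.0 CPM, against 6712 CPM. Glutamatergic neuron genes took 0.261% in replicate 6, against 0.135%, and Itm2c, a neuronal membrane protein gene, stood at 10239 CPM, against 5229 CPM. Oligodendrocyte precursor genes took 0.118% in replicate 10, against 0.0166%, from Pdgfra. Endothelial and mural genes took 0.00767% in replicate 1, against 0.00261%.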

How the results depend on the processing

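The count of genes in all 10 libraries depended most on the minimum count: it was 389 with at least 2 counts, 188 with at least 5, 110 with at least 10 and 277 at equal totals without Rn45s, against 607. Genes in 2 to 9 libraries came to 4452 and 3334 with minimums of 5 and 10, against 7033. Counts of 0 where counts were expected came to 570 with at least 10 expected, and genes concentrated in 1 library to 7734 with no minimum count, against 2236 and 4243. The other alternatives for these counts, TMM and DESeq2 scaling among them, stayed within 1.5 times.

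Leaving out each library in turn, the relation of total to genes counted ran from 0.60 to 0.89 (adjusted p 0.000207 to 0.229). The same exercise gave 0.0491 to 0.370 for the relation of Rn45s share to genes at equal depth, -0.645 to 0.441 for that to the other total, -0.279 to 0.0305 for that to the leading other genes and -0.00768 to 0.325 for that to ribosomal protein mRNA. With both measures as log10 these 4 were -0.115, -0.175, 0.0696 and -0.0651, and without the 2 libraries farthest from the median those to genes at equal depth, leading other genes and ribosomal protein mRNA were -0.0925, 0.0807 and -0.281. All 4 missed the threshold throughout, and their sign is not settled.

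Leaving out replicates 1 and 4 together, chosen after seeing the data, left 684 genes in every library. Depth limits single libraries: a 0 in replicate 8 allows 39.2 CPM. No paired analysis was possible because only 1 group was tested.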

Other observations

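Of 14 immediate early genes, which neurons switch on after activity, none was in all 10 sorted libraries, 10 were in 2 to 9, 3 in 1 and 1, Npas4, in none. Of all genes, 2.41% were in all 10, 27.9% in 2 to 9, 10.7% in 1 and 59.1% in none. Dusp1, a phosphatase gene, was the most often counted of those named, in 9 libraries with at most 25 counts, and Egr1, a transcription factor gene, was in 7 with at most 45. Of 10 nuclear-retained RNAs, 5 were in 2 to 9 libraries, 2 in 1 and 3 in none. Median crude levels were 16.8 CPM for the immediate early and 2.96 CPM for the nuclear-retained list. Of all genes between 10 and 100 CPM in the crude libraries, 1.05% were in all 10 sorted libraries. For genes between 1 and 10 CPM it was 0%. Whether either list differs from genes of like level was not tested. Malat1, a long RNA of nuclear speckles, had 183, 1, 3, 0, 2, 3, 0, 2, 0 and 0 counts in replicates 1 to 10, which averaged 20.4 CPM ± 30.9 in the sorted libraries (SD, n = 10), against 22.4 CPM in the crude libraries. Without replicate 1 the sorted mean was 11.5 CPM ± 13.3 (SD, n = 9). Malat1 was at 0 in replicates 4, 7, 9 and 10. In replicate 9, with the highest Rn45s share, a 0 allows up to 35.1 CPM. That limit is above the crude mean, so this 0 does not show a lower level.

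Blood and choroid plexus markers were sparse. Of 10 blood genes, 2 were in 2 to 9 libraries, 2 in 1 and 6 in none. Of 8 ependymal and choroid plexus genes, 2 were in 2 to 9 libraries, 1 in 1 and 5 in none. The shares over all genes were 27.9%, 10.7% and 59.1%. Median crude levels were 1.98 CPM for the blood list and 0.902 CPM for the ependymal and choroid plexus list. The haemoglobin gene Hba-a1 had 89 counts in replicate 3, 45 in replicate 6 and at most 7 elsewhere, and Hbb-bs had 20 in replicate 5 and 3 in replicate 3. Over the 10 sorted libraries Hba-a1 averaged 137 CPM, against 15.8 CPM in the crude libraries. Hbb-bs went the other way, with 17.2 CPM against 134 CPM. Hba-a1 and Hba-a2 are near-identical copies, so their split is uncertain. Ttr, the transthyretin of the choroid plexus, was in 6 libraries with at most 24 counts, and averaged 67.7 CPM over the 10 sorted libraries, against 602 CPM in the crude libraries. Foxj1, the other defining marker of that list, had 1 count in replicate 2 and none elsewhere.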
